A study of Mus musculus with 8 samples.

Results

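Cytochromes P450 of the Cyp1, Cyp2, Cyp3, and Cyp4 families and the conjugating enzymes of the glutathione S-transferase (GST), UDP-glucuronosyltransferase (UGT), and sulfotransferase (SULT) families were compared in colonic epithelial cells of mice carrying BTΔMAFF or BTWT. A gene was a member where its symbol belonged to one of these families and a probe set carried that symbol alone, and where a gene had several such probe sets, the one with the largest SD over the 8 arrays stood for it, groups ignored. This gave 96 members among 18193 genes, of which 56 are P450, 19 are GST, 8 are UGT, and 13 are SULT genes. A further 8 probe sets with several symbols were left out, and no Ugt1 probe set had 1 symbol. BTΔMAFF (BTDMAFF in the sample labels) is the Bacteroides thetaiotaomicron (B. theta) strain that lacks maffC and maffD, the genes of the MAFF (Mucus-Associated Functional Factor) system, and BTWT is the wild-type strain. Male C57BL/6 mice of both groups were treated with antibiotics (SPF-Abx mice), colonized at 8 wk of age, and sampled at 12 wk, 4 wk after colonization, with 4 mice in each group and 1 Affymetrix array for each mouse. These hosts keep a microbiota of their own beside the B. theta strain, and the mutant is a single deletion strain. The cells were sorted as living, positive for EpCAM, and negative for CD45, a marker of leukocytes, and cDNA was amplified before hybridization.

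Enzymes of these families handle foreign and endogenous lipophilic compounds in steps. P450 enzymes oxidize a substrate, GST, UGT, and SULT enzymes couple it to glutathione, glucuronic acid, or sulfate, and efflux pumps export the product. Receptors such as Ahr, Nr1i2 (PXR), and Nr1i3 (CAR) and the stress factor Nfe2l2 (NRF2) are known to induce many of these genes in liver and intestine, where diet and the products of bacteria supply ligands.

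All values are on a log2 scale that the authors had centred, probe set by probe set, on the median over the 8 arrays. They hold differences between mice and neither a level nor a detection call, so a gene at a steady level and a gene that was not expressed look alike. Differences are BTΔMAFF minus BTWT from limma, with standard errors (SE). The p-values set each difference against the spread between mice within the groups, which limma estimates with information shared over probe sets. In bulk RNA of a cell fraction, fewer cells of a type and less RNA per cell cannot be told apart. Along the first principal component (29.4% of the variance), BTΔMAFF replicate 4 and BTWT replicate 2 lay apart from all other arrays. Of the marker lists, the clock outputs were higher in BTΔMAFF for 8 of 9 genes at an unadjusted p under 0.05 (over all genes, 3.37% were higher and 2.35% lower), and the mean of the list lay between 0.72 and 1.04 in BTΔMAFF mice and between -1.46 and -0.61 in BTWT mice. Proliferation markers were lower for 5 of 7 genes, with list means between -0.79 and -0.17 in BTΔMAFF mice and between -0.12 and 0.79 in BTWT mice. The same count was 2 of 8 higher for epithelium, 2 of 4 higher for distal colon position, 2 higher and 1 lower of 10 for differentiated colonocytes, 2 higher and 1 lower of 8 for goblet cells, 1 of 10 lower for stroma and muscle, 1 of 6 lower for small intestine, and 0 for leukocytes (of 11), endothelium (of 5), enteric glia (of 3), and hepatocytes (of 6). The part of these markers in the values of the members was not tested. Of the markers used for sorting, the log2 difference was -0.10 (SE 0.23) for Epcam and 0.01 (SE 0.03) for Ptprc, the CD45 gene.

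No xenobiotic enzyme passed the adjusted test, and 4 stood out before adjustment. Cyp2d10 and Sult2b1 were the only members in which every BTΔMAFF mouse lay on one side of every BTWT mouse, and Gstm3 and Sult1a1 also had an unadjusted p under 0.05. With limma and Benjamini-Hochberg adjustment over 45037 probe sets, 0 of the 96 members and 0 of the 18193 genes (0%) passed an adjusted p of 0.05, and the smallest adjusted p of a member was 0.418. At an unadjusted p under 0.05, 1 member was higher in BTΔMAFF, against a background of 3.37% of all genes, and 3 were lower, against 2.35%. Together these are 4.17% of the members, beside 5.72% of all genes, so the share of members was near the background. The count of members without overlap between the groups was 1 higher (background 1.84%) and 1 lower (background 1.3%). A log2 difference beyond 0.5 in either direction was seen in 5 members (5.21%), beside 8.44% of all genes. The median log2 difference was -0.02 over the members and -0.02 over all genes, and 69 of 96 members had a negative sign (71.9%), beside 66.8% of all genes.

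**Figure D1:**
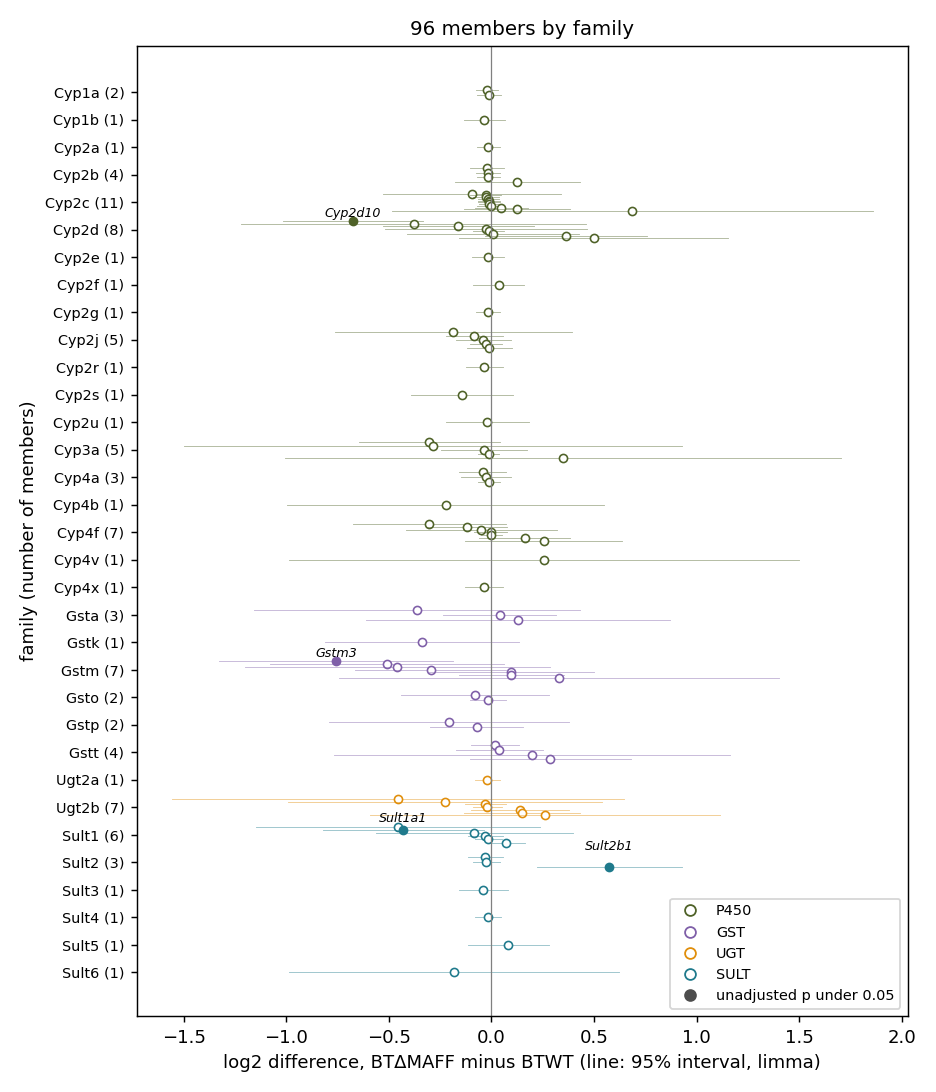
Log2 difference (BTΔMAFF minus BTWT, x axis) of each of the 96 members with its 95% interval from limma (lines), by family (y axis, number of members in parentheses) and coloured by class. Filled circles are the 4 members with an unadjusted p under 0.05, of which Cyp2d10, Gstm3, and Sult1a1 lie below 0 and Sult2b1 lies above it.

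Cyp2d10 had the smallest p of the members. It encodes one of the mouse CYP2D enzymes, a subfamily that in humans includes the drug-metabolizing CYP2D6. Its centred log2 values were -0.59, -0.38, -0.09, and -0.53 in BTΔMAFF mice (replicates 1 to 4), against 0.09, 0.10, 0.43, and 0.50 in BTWT mice. All 4 BTΔMAFF mice lay below all 4 BTWT mice, with BTΔMAFF replicate 3 and BTWT replicate 1 closest to each other. The log2 difference was -0.68 (SE 0.14), or 1.6-fold lower in BTΔMAFF (limma adjusted p = 0.418). Leaving out each mouse in turn gave differences between -0.78 and -0.60, all 8 with an unadjusted p under 0.05. To show the sequence before the gene's start, the 250 upstream bases of its RefSeq transcript (GRCm38.p6, chr15:82407195-82407444, minus strand) are printed 5′ to 3′. This window held no match to the GCGTG and TGACNNNGC letters or to the D-box, the motifs searched in the promoters of the members.
Cyp2d10: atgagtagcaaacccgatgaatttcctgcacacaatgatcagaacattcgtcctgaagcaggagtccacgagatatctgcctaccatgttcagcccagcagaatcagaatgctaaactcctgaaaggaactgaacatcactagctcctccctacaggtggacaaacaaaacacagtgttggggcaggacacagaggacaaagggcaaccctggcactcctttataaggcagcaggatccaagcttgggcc

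Sult2b1, a sulfotransferase of cholesterol and related 3β-hydroxysteroids, was the 1 member higher in BTΔMAFF at an unadjusted p under 0.05. Its centred log2 values were 0.31, 0.67, 0.69, and 0.05 in BTΔMAFF mice and -0.19, -0.24, -0.05, and -0.09 in BTWT mice. The groups did not overlap, and BTΔMAFF replicate 4 lay nearest to the BTWT mice. The log2 difference was 0.57 (SE 0.15), or 1.49-fold higher (limma adjusted p = 0.570), and remained at an unadjusted p under 0.05 without any single mouse. Both other Sult2 members, Sult2a2 and Sult2a8, had an SD under 0.1 over the 8 mice. RefSeq gives Sult2b1 starts at separate places, and both upstream windows (GRCm38.p6, chr7:45759613-45759862 and chr7:45742479-45742728, minus strand) are shown because they differ in the Ahr core motif GCGTG. Capitals mark it at position -118 from the start of the second window's transcript.
Sult2b1 window 1: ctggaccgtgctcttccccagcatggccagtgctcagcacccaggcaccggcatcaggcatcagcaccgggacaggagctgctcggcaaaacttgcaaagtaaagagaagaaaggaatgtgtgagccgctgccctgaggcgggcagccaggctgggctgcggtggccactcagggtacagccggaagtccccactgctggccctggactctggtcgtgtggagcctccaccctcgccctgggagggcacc
Sult2b1 window 2: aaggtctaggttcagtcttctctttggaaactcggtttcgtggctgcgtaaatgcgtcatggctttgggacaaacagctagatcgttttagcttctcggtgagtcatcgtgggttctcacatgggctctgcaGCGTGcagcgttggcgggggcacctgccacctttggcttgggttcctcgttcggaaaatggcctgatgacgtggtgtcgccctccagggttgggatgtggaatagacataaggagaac

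The mu-class GST genes were the family with the most members beyond 0.5 on the log2 scale, 2 of 7 (background 8.44% of all genes). These were Gstm3 and Gstm1, and none of their other probe sets lay beyond 0.5. The count therefore depends on the choice of probe set. The mu-class genes encode enzymes that couple glutathione to electrophiles and lie next to each other on chromosome 3. There, Gstm3 has Gstm6 and Gstm2 as neighbours. Gstm3 had centred log2 values of 0.09, -0.90, -0.83, and -0.71 in BTΔMAFF mice, against 0.52, 0.02, 0.16, and -0.02 in BTWT mice. BTΔMAFF replicates 2, 3, and 4 lay below every BTWT mouse, whereas BTΔMAFF replicate 1 lay among them. The log2 difference was -0.76 (SE 0.24), or 1.69-fold lower (limma adjusted p = 0.777). The probe set is one whose probes can match several transcripts, and the other probe set of Gstm3 had a difference of -0.40, with an unadjusted p above 0.05. Without both arrays that stood apart, the difference was -0.77 and its unadjusted p was no longer under 0.05.

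Gstm1 and Gstm2 had a similar pattern over the mice without an unadjusted p under 0.05. Gstm1 had 0.05, -0.64, -0.86, and -0.05 in BTΔMAFF mice and 0.41, 0.26, 0.09, and -0.23 in BTWT mice on the centred log2 scale, a difference of -0.51 (SE 0.24). Its 3 other probe sets had differences of the same sign, between -0.45 and -0.03. Gstm2 had 0.48, -0.32, -0.66, and -0.03 in BTΔMAFF mice and 0.73, 0.03, 0.74, and -0.19 in BTWT mice, a difference of -0.46 (SE 0.31). In each of these genes, BTΔMAFF replicates 2 and 3 lay below every BTWT mouse, and BTΔMAFF replicate 1 was the highest of its group. Gstm6 also had a negative difference, -0.30 (SE 0.16). Differences of Gstm4 (0.10, SE 0.11), Gstm5 (0.10, SE 0.17), and Gstm7 (0.33, SE 0.45) were positive. Gstm7 was 1.30 in BTΔMAFF replicate 1 and 1.14 in BTWT replicate 1. The other probe set of Gstm7 had a difference of -0.01. Near-identical sequence among the Gstm genes means that signal can be shared between their probe sets.

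Because Gstm1, Gstm2, and Gstm3 shared low values in BTΔMAFF replicates 2 and 3, their upstream windows are given together, 5′ to 3′ on the minus strand of chromosome 3 (GRCm38.p6, chr3:108017974-108018223, chr3:107986421-107986670, and chr3:107969175-107969424). RefSeq gives Gstm1 an overlapping second window, not printed, that holds the same GCGTG at position -231. Capitals mark GCGTG, which of the windows printed only that of Gstm1 held, at position -76.
Gstm1: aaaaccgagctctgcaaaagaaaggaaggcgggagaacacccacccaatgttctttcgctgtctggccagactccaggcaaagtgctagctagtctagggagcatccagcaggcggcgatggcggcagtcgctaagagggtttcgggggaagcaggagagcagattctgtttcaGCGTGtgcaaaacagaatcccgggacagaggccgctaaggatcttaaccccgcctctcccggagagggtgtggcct
Gstm2: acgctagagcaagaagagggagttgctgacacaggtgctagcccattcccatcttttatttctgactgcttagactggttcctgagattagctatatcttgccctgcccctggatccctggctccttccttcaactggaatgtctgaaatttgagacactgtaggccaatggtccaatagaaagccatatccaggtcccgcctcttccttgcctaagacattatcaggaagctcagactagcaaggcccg
Gstm3: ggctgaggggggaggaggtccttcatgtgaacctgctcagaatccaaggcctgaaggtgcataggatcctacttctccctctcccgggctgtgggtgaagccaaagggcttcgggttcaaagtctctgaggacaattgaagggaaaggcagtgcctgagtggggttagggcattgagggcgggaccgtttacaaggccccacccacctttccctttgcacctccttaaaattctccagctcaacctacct

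Sult1a1, a phenol sulfotransferase, had centred log2 values of 0.05, -0.46, -0.56, and -0.18 in BTΔMAFF mice and 0.46, -0.03, 0.10, and 0.03 in BTWT mice. Here too BTΔMAFF replicate 1 lay among the BTWT mice and the other 3 lay below them. The log2 difference was -0.43 (SE 0.17), or 1.35-fold lower (limma adjusted p = 0.828). This call was lost without BTΔMAFF replicate 2, 3, or 4 and without BTWT replicate 1 or 3, with differences between -0.54 and -0.32 over the 8 mice left out in turn. Sult1c2 had 0.33, -0.61, -0.78, and -0.25 in BTΔMAFF mice and 0.42, -0.47, 0.31, and 0.25 in BTWT mice, a difference of -0.45 (SE 0.29). The window before the Sult1a1 start (GRCm38.p6, chr7:126676419-126676668, minus strand), shown for comparison with that of Sult2b1, held no match to the motifs.
Sult1a1: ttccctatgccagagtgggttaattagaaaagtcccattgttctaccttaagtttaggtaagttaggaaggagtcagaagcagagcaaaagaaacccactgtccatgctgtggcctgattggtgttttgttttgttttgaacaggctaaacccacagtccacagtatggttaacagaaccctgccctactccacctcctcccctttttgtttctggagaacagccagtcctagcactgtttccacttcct

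**Figure D2:**
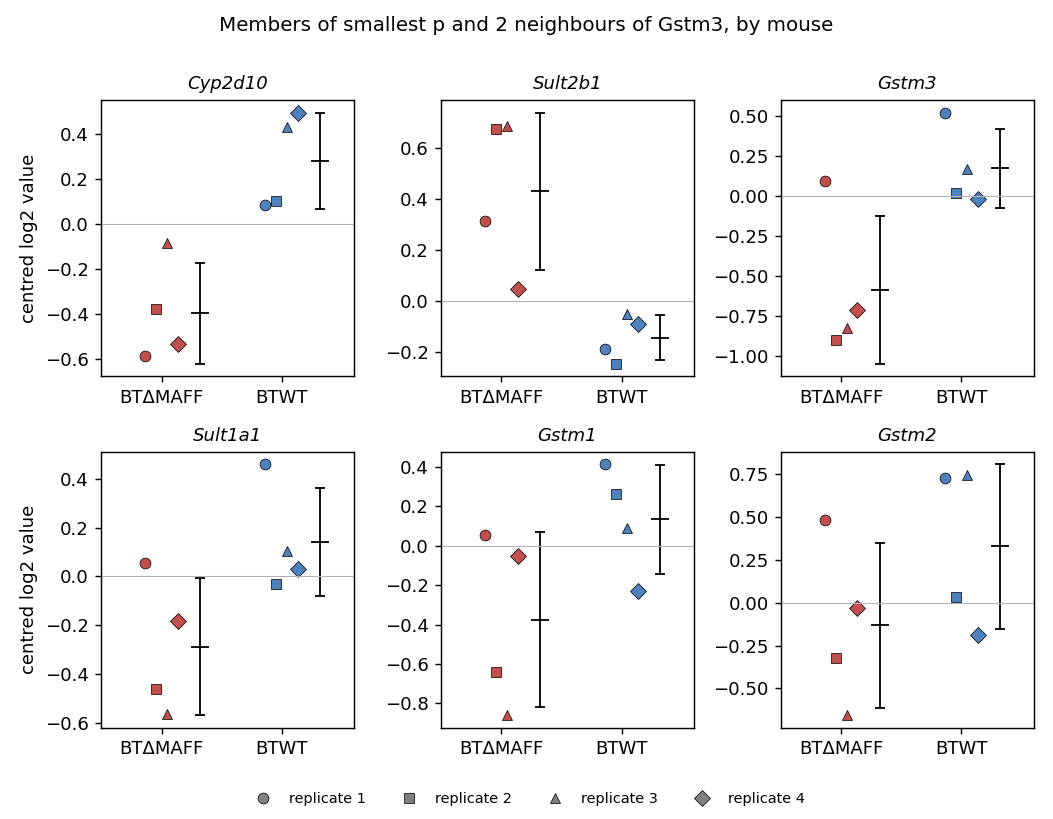
Centred log2 value (y axis) of the 4 members with an unadjusted p under 0.05 and of Gstm1 and Gstm2 in each mouse. BTΔMAFF is left and BTWT right, with the mean and SD of 4 mice beside the points. Marker shapes give the replicate numbers, for which the labels state no pairing. The groups do not overlap for Cyp2d10 and Sult2b1, and BTΔMAFF replicate 1 lies among the BTWT mice for Gstm3, Sult1a1, Gstm1, and Gstm2.

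Among the P450 genes, Cyp2d10 was the 1 of 56 with an unadjusted p under 0.05 (background 5.72% of all genes). The class had a median log2 difference of -0.02. Cyp2d genes had differences of both signs: Cyp2d9, a neighbour of Cyp2d10, had a difference of 0.50 (SE 0.28), Cyp2d12 one of 0.36 (SE 0.17), and Cyp2d22 one of -0.38 (SE 0.36). Cyp2d12 was 0.70 in BTΔMAFF replicate 3 and between -0.31 and 0.11 in the other 7 mice. P450 genes known from intestine and other epithelia did not reach an unadjusted p under 0.05. Cyp3a13, an intestinal P450, had -0.30 (SE 0.15), and Cyp4f16, of a family that hydroxylates fatty acids and eicosanoids, had -0.30 (SE 0.16), with -0.33 for its other probe set. Cyp2s1, a P450 of epithelia known as an Ahr target, had -0.15 (SE 0.11), and Cyp2c55, known from mouse colon, had 0.12 (SE 0.11). Cyp4b1, which hydroxylates fatty acids and some protoxins, had -0.22 (SE 0.33), a sign that turned without BTΔMAFF replicate 4, at -0.91.

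The widest spread among P450 genes was in Cyp3a25, Cyp2c68, and Cyp4v3, and it did not follow the groups. Cyp3a25 had 1.99 in BTΔMAFF replicate 2, 0.85 in BTΔMAFF replicate 3, and 1.57 in BTWT replicate 4, while the other 5 mice lay between -0.08 and 0.02. Cyp4v3 was low in both arrays that stood apart, at -1.17 in BTΔMAFF replicate 4 and -1.17 in BTWT replicate 2. Cyp2c68 had the largest positive difference of all members, 0.69 (SE 0.50), with 1.23 in BTΔMAFF replicate 4 and -1.28 in BTWT replicate 2. The classical induced genes were flat: Cyp1a1 and Cyp1b1, which Ahr induces, Cyp3a11, which Nr1i2 induces, and Cyp2e1, which oxidizes ethanol, had differences of -0.01, -0.04, -0.01, and -0.02, and the sign turned under another scaling of the arrays for Cyp1a1, Cyp3a11, and Cyp2e1. The values of Cyp1a1 lay between -0.0247 and 0.0443 in BTΔMAFF mice and between -0.00497 and 0.0324 in BTWT mice. Cyp2b10, the standard target of Nr1i3 in mouse liver, was 0.54 in BTΔMAFF replicate 3 and between -0.03 and 0.04 in all other mice, for a difference of 0.13 (SE 0.13).

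GST genes outside the mu class were 0 of 12 at an unadjusted p under 0.05 (background 5.72% of all genes). All 4 theta-class genes had a positive difference, the largest being Gstt2 at 0.29 (SE 0.17) and Gstt1 at 0.20 (SE 0.41), whose sign turned without BTWT replicate 2, at -1.43. Gsta4, which clears the lipid aldehyde 4-hydroxynonenal, had -0.36 (SE 0.34), with 0.86 in BTΔMAFF replicate 1 and -0.32, -0.52, and -0.58 in the other BTΔMAFF mice, against 0.36, -0.02, 0.53, and 0.02 in BTWT mice. Gstk1, of mitochondria and peroxisomes, had -0.34 (SE 0.20), Gsto1 had -0.08 (SE 0.15), and Gstp1 had -0.07 (SE 0.10).

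The 8 UGT genes held no member with an unadjusted p under 0.05 (background 5.72% of all genes), and the differences lay between -0.46 and 0.26. Ugt2b35, Ugt2b36, and Ugt2b5 had the widest spread, with SDs over the 8 mice of 0.70, 0.53, and 0.47. Ugt2b36 was 1.45 in BTΔMAFF replicate 1 and between -0.18 and 0.17 in all other mice. Ugt2b5 was high in replicate 1 of each group, at 0.77 in BTΔMAFF and 0.74 in BTWT. Ugt2b34 had a difference of 0.14 (SE 0.10), with 0.08 for its other probe set. Among the 13 SULT genes, Sult1d1, which sulfates catecholamines, had -0.08 (SE 0.20) and 0.15 in its other probe set, Sult1b1, which sulfates thyroid hormones, had 0.07 (SE 0.04) with an SD under 0.1, and Sult6b1 had -0.18 (SE 0.34), with 0.99 in BTΔMAFF replicate 4 and 0.75 in BTWT replicate 2.

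The means of the GST and UGT genes varied more within the groups than between them. The mean of the 19 GST genes was 0.23, -0.16, -0.13, and -0.10 in BTΔMAFF mice and 0.28, -0.14, 0.09, and -0.00259 in BTWT mice, so that replicate 1 was the highest in each group. The mean of the 8 UGT genes was 0.28, -0.04, -0.11, and -0.01 in BTΔMAFF mice and 0.22, 0.13, -0.02, and -0.11 in BTWT mice. Replicate 1 of each group was again on top. The labels give replicate numbers and no pairing of mice by them. The 56 P450 genes had means between -0.05 and 0.09 in BTΔMAFF mice and between -0.01 and 0.08 in BTWT mice, and the 13 SULT genes between -0.06 and 0.10 in BTΔMAFF mice and between -0.00213 and 0.07 in BTWT mice. The group means of each class overlapped within their SDs, with -0.04 ± 0.18 in BTΔMAFF and 0.06 ± 0.18 in BTWT for GST (SD, n = 4 mice each), and 0.02 ± 0.06 in BTΔMAFF and 0.03 ± 0.04 in BTWT for P450 (SD, n = 4 mice each).

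**Figure D3:**
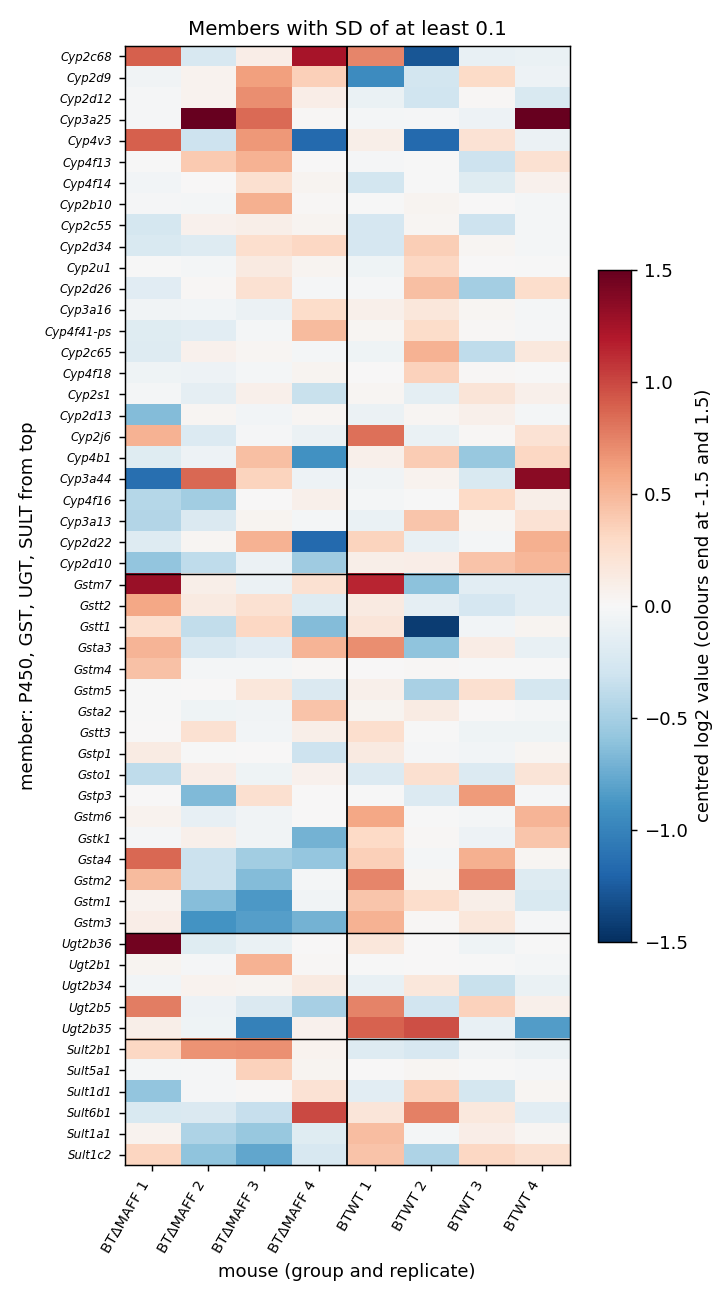
Centred log2 value (colour) of the 53 members with an SD of at least 0.1 over the 8 mice (rows, ordered by class and difference) in each mouse (columns). Most rows vary within the groups, Cyp2d10 at the foot of the P450 block is lower in all 4 BTΔMAFF mice, and Sult2b1 at the top of the SULT block is higher in all 4.

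Many members, most of them P450 genes, varied little between mice. An SD under 0.1 over the 8 arrays was found for 43 of 96 members (44.8%), beside 38.6% of all genes, and for 31 of 56 P450 genes, 2 of 19 GST, 3 of 8 UGT, and 7 of 13 SULT genes. These include 8 of 11 Cyp2c genes, 4 of 5 Cyp2j, 3 of 4 Cyp2b, and all 3 Cyp4a genes, many of which are known from mouse liver. In this set no value lay beyond 0.236 from 0 and no difference beyond 0.0838, and all 43 intervals lay within 0.5 on the log2 scale. The SD limit that defines the set keeps these values small, so they are no test of a difference between the groups. For 38 of the 43, BTΔMAFF replicate 3 had the lowest value, and for 33, BTΔMAFF replicate 4 had the highest. Over all genes, the same arrays had the lowest and the highest median, -0.03 and 0.04. Over all 96 members, the 95% interval of the difference lay within a log2 difference of 1, a 2-fold change, for 80 members. It lay within 0.5 for 61, which include the 43 of low SD, and it reached beyond 1 for 7 P450, 6 GST, 2 UGT, and 1 SULT genes.

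**Figure D4:**
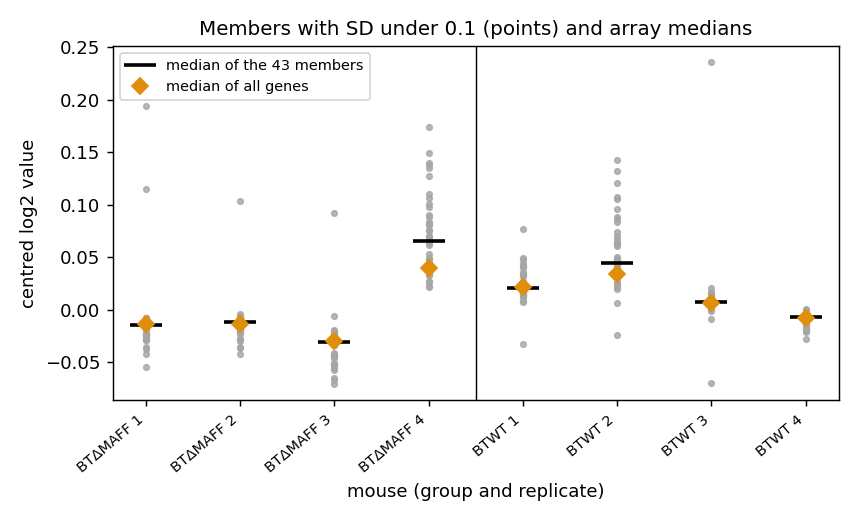
Centred log2 values (y axis) of the 43 members with an SD under 0.1 (points) in each mouse (x axis), with their median (bar) and the median over all genes (diamond). BTΔMAFF replicate 3 has the lowest median of the points and BTΔMAFF replicate 4 the highest, as do the medians over all genes, -0.03 and 0.04, while the highest single point, 0.236, is in BTWT replicate 3.

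Among the regulators of these enzymes, Nr1h3, Ppara, Rxra, Nr1i3, Keap1, Dbp, and Tef were higher in BTΔMAFF before adjustment. The list of 21 measured regulators of the xenobiotic response holds transcription factors and proteins that act on them, such as Keap1. Of these, 7 were higher in BTΔMAFF and 0 lower by the unadjusted threshold (background 3.37% and 2.35%). The median log2 difference was 0.25, beside -0.02 over all genes. The smallest adjusted p of the list was 0.243 (limma). The list holds Dbp and Tef, PAR bZIP factors that also stand among the clock outputs, at 2.31 and 2.10, while Hlf, of the same family, had -0.02 (SE 0.04), and without the clock outputs the count was 5 of 18 with a median of 0.21. Nr1h3, the oxysterol receptor LXRα, had 1.05, 1.24, 0.23, and 0.65 in BTΔMAFF mice and -1.57, -0.83, -0.23, and -1.64 in BTWT mice. The groups did not overlap, and the difference was 1.86 (SE 0.37). Ppara, the fatty acid receptor that drives Cyp4a genes in mouse liver, had 1.07, 1.43, 1.88, and -0.12 in BTΔMAFF mice and -0.04, -1.03, -0.36, and 0.04 in BTWT mice, a difference of 1.41 (SE 0.46). BTΔMAFF replicate 4 lay among the BTWT mice.

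Rxra, the shared partner of these nuclear receptors, had a difference of 0.46 (SE 0.13) without overlap. Nr1i3 had 0.41 (SE 0.16), and Keap1, which holds Nfe2l2 for degradation, had 0.41 (SE 0.14), both with overlap. The call of Nr1i3 was lost without BTΔMAFF replicate 2 or 3 or any single BTWT mouse, with differences between 0.29 and 0.52. That of Keap1 was lost without BTΔMAFF replicate 1, 2, or 3 or BTWT replicate 1, 2, or 3, with differences between 0.35 and 0.53. Ahr, Nr1i2, and Nfe2l2 did not reach an unadjusted p under 0.05, with -0.40 (SE 0.43), 0.26 (SE 0.14), and -0.05 (SE 0.14), the last of which turned sign with quantile normalization. Hnf4a, a master regulator of epithelial and hepatic genes, had 0.57 (SE 0.25). The targets named above for these factors, Cyp4a for Ppara, Cyp2b10 for Nr1i3, and Cyp3a11 for Nr1i2, were flat or high in 1 mouse. Centred values do not tell whether these targets were expressed, and the activity of the factors was not tested.

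Of 16 measured genes of cofactor supply, Ugp2, which makes the UDP-glucose from which UDP-glucuronic acid is formed, was higher at 0.93 (SE 0.23) without overlap between the groups, and 0 were lower (background 3.37% and 2.35% of all genes). Its values were 0.70, 0.94, 0.04, and 0.62 in BTΔMAFF mice and -0.53, -0.70, -0.16, and -0.04 in BTWT mice. The call of Ugp2 was kept without any single mouse but lost with the mean of all probe sets of a gene. Ugdh, which completes that donor, had 0.18 (SE 0.14), the sulfate donor synthases Papss1 and Papss2 had 0.10 and -0.00932, and the glutathione genes Gss and Gsr had 0.30 (SE 0.16) and 0.28 (SE 0.16). Of 30 other phase I and phase II enzymes, 2 were higher and 2 lower by the unadjusted threshold (background 3.37% and 2.35% of all genes). Carboxylesterases were on both sides, with Ces2a at 0.75 (SE 0.20), Ces1g at -0.67 (SE 0.22), and Ces2e at -0.38 (SE 0.16). The call of Ces2e was lost without any single mouse other than BTΔMAFF replicate 3 (differences between -0.53 and -0.27), and that of Ces1g without BTWT replicate 1. The aldo-keto reductase Akr1c19 had 0.45 (SE 0.17), a call lost without BTΔMAFF replicate 1 or 3 or BTWT replicate 2, 3, or 4 (differences between 0.31 and 0.55), and the Nfe2l2 target Nqo1 had -0.24 (SE 0.21).

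Among the 12 transporters, the efflux pumps had the smallest p, with 3 higher and 1 lower at an unadjusted p under 0.05 (background 3.37% and 2.35% of all genes). Abcc2 (MRP2), which exports glutathione, glucuronide, and sulfate conjugates, had 0.29, 0.57, 0.87, and 0.66 in BTΔMAFF mice, against -0.29, -0.50, -1.0, and -1.07 in BTWT mice. Every BTΔMAFF mouse lay above every BTWT mouse, and the difference was 1.31 (SE 0.21, limma adjusted p = 0.225). The P-glycoprotein genes Abcb1a and Abcb1b went in opposite directions, both without overlap: Abcb1a had 0.22, 0.31, 0.57, and 0.15 in BTΔMAFF mice and -0.36, -0.24, -0.38, and -0.15 in BTWT mice (difference 0.59, SE 0.10), and Abcb1b had -0.24, -0.67, -1.55, and -1.30 in BTΔMAFF mice and 0.39, 0.24, 1.12, and 0.25 in BTWT mice (difference -1.44, SE 0.34). Abcc1 had 0.68 (SE 0.23), with BTΔMAFF replicate 4 among the BTWT mice, and its call was lost without BTΔMAFF replicate 3 or BTWT replicate 1.

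**Figure D5:**
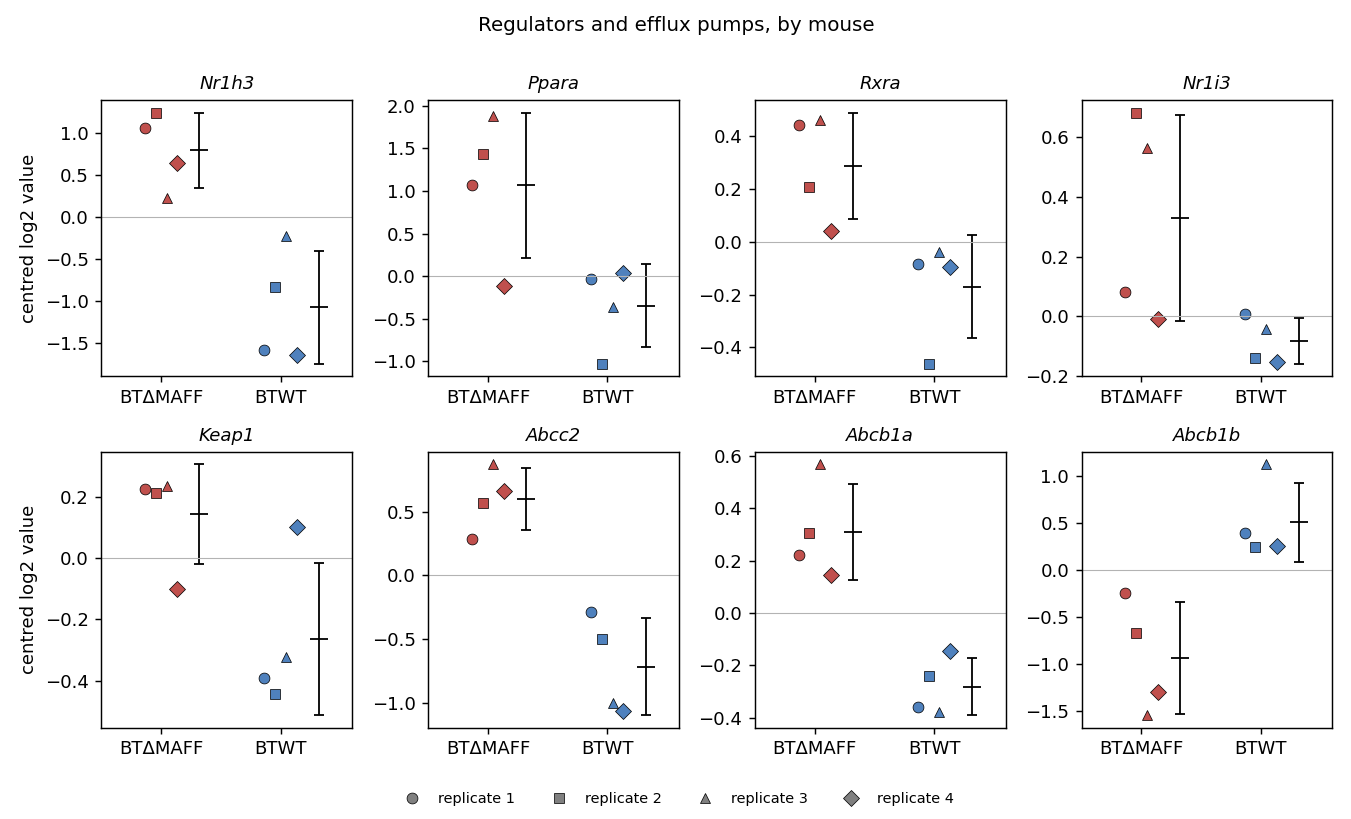
Centred log2 value (y axis) of 5 regulators and 3 efflux pumps in each mouse. BTΔMAFF is left and BTWT right, with the mean and SD of 4 mice beside the points. Marker shapes give the replicate numbers, for which the labels state no pairing. The groups do not overlap for Nr1h3, Rxra, Abcc2, Abcb1a, and Abcb1b, and BTΔMAFF replicate 4 lies among the BTWT mice for Ppara, Nr1i3, and Keap1.

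The upstream windows of the members were searched on both strands for the letters GCGTG (the core of the element bound by Ahr with Arnt), TGACNNNGC (the antioxidant element bound by Nfe2l2), and the D-box TTATGTAA or TTACGTAA (bound by Dbp, Tef, and Hlf). A match of the first can share its letters GC with the second. RefSeq windows of 250 bases were found for 79 members, 95 windows in all. GCGTG was in 21.1% of the member windows, beside 28.2% of all 32851 windows, and among its 18 members are Cyp1a1, Cyp1b1, Gstm1, and Sult2b1. TGACNNNGC was in 5.26% of the member windows, beside 10.2% of all, with Gsta3, Gstm5, Gstm7, Cyp4f14, and Cyp4f18 as its members. The D-box was in 1.05%, beside 0.931% of all, and Ugt2b1 was its 1 member, with a log2 difference of 0.15 (SE 0.12). A match in these windows is a description of letters and not a binding site.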

How the data were processed

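Gene expression in sorted colonic epithelial cells of 4 BTΔMAFF- and 4 BTWT-colonized mice was measured on Affymetrix mouse genome arrays. The authors deposited log2 values with a median of 0 over the 8 arrays for each of 45101 probe sets. GeneSpring is named in the methods and Affymetrix Expression Console in the notes of the submitters; how values were summarized and normalized is not given in the sources used here. After removal of 64 control probe sets, limma (version 3.58.1, R 4.3.3, lmFit and eBayes, no covariate) was run on 45037, adjusted by Benjamini-Hochberg at 0.05. The 34945 probe sets with 1 gene cover 18193 genes, and all 96 members were found by gene ID in RefSeq, with 0 symbols changed. Counts of members and of pathway genes at an unadjusted p under 0.05 are read against the share over all genes. The members, gene lists, and tests were chosen with earlier results of these data known. Members named are those at an unadjusted p under 0.05 (up to 12 in each direction), the 3 of largest SD in each class, and a fixed set of known intestinal and inducible enzymes. Pathway genes named are those at an unadjusted p under 0.05, up to 4 of smallest p in each list, and a fixed set of sensors. Cyp2d9, Cyp2d12, Cyp2d22, the Gstm genes other than Gstm1 and Gstm3, Gstt2, and genes set beside a named one were added after their values were seen. Alternatives were quantile normalization, centring on array medians, array weights, the replicate block, a robust prior, the methods' test, other choices of probe set, an SD filter, and leaving out arrays. The procedure was tested on simulated data. The number of arrays limits the precision.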

Additional observations from a re-analysis of the deposited data

Results flagged for a closer look

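Groups of 4 mice were examined for the members and pathway genes named above, 110 in all. In 11 of them, 1 mouse lay far from the other 3 of its group by Dixon's ratio. Some of these genes were named for the largest SD in their class, so this count cannot be set against a chance rate. Above the rest of their group were Cyp3a25 in BTWT replicate 4 (1.57 on the centred log2 scale, the others between -0.08 and -0.02), Ugt2b36 in BTΔMAFF replicate 1 (1.45, the others between -0.18 and 0.00171), Sult6b1 in BTΔMAFF replicate 4 (0.993, the others between -0.34 and -0.22), and Cyp2b10 in BTΔMAFF replicate 3 (0.537, the others between -0.03 and 0.02). Below the rest of their group were Gstt1 in BTWT replicate 2 (-1.43), Ugt2b35 in BTΔMAFF replicate 3 (-1.01), Gstk1 in BTΔMAFF replicate 4 (-0.713), and Cyp2c55 in BTΔMAFF replicate 1 (-0.264). Of the regulators, Tef was -2.37 in BTWT replicate 3, Rxra was -0.461 in BTWT replicate 2, and Keap1 was -0.100 in BTΔMAFF replicate 4, each below the other mice of its group. The arrays that stood apart on the first principal component, BTΔMAFF replicate 4 and BTWT replicate 2, hold 5 of the 11 values.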

How the results depend on the processing

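Cyp2d10 and Sult2b1 had an unadjusted p under 0.05 under all alternatives run. Gstm3 missed it with its other probe set (-0.40) and when both outlying arrays, BTΔMAFF replicate 4 and BTWT replicate 2, were left out (-0.77), and Sult1a1 by the methods' test, without 5 of the 8 single mice, and without both arrays (-0.52). Quantile normalization added Cyp4f15, for 2 members higher. Array weights gave BTΔMAFF replicate 4 a weight of 0.12 and BTWT replicate 3 one of 4.68. With them, 7 members were higher and 17 lower, beside 4887 of all 18193 genes called unadjusted in either direction. Past the adjusted threshold in limma were 234 genes, among them 2 members. These were Sult2b1 (adjusted p = 0.0319, range over all alternatives 0.0319 to 0.994) and Cyp2d10 (adjusted p = 0.0384, range 0.0384 to 0.788). All other alternatives, the methods' test included, gave 0 members past the adjusted threshold. The labels give replicate numbers and no pairing. Correlations of same-numbered deviations were 0.39, -0.04, 0.03, and -0.27, which cannot tell whether same-numbered mice shared a batch. With the replicate block 5 members were higher and 5 lower, beside 1255 of all 18193 genes called unadjusted. Without both arrays, 8 members were lower, beside 2187 of all 18193 genes called unadjusted in either direction. Leaving out each mouse gave 1 to 3 higher and 2 to 6 lower, with 3 higher and 6 lower without BTΔMAFF replicate 1, 2 higher and 5 lower without BTΔMAFF replicate 4 or BTWT replicate 2, and 2 higher without BTWT replicate 3. Over all genes, leaving out single mice gave between 801 and 1972 unadjusted calls. The UGT median was 0.0542 with the SD filter, which left 76 members.

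The counts of this paragraph stand beside 4887 of all 18193 genes called unadjusted with array weights and 2187 without both arrays. For the regulators of the xenobiotic response, array weights gave 11 higher and 1 lower, and 1 was lower without _s_at and _x_at probe sets. Of cofactor supply genes, 5 were higher with array weights, 0 with the mean of all probe sets, 2 without both arrays, and 1 to 2 without single mice. Of other phase I and II enzymes, 4 were higher with quantile normalization, 8 with array weights (5 lower), 1 with the methods' test, and 5 without both arrays (0 lower). By the same count 1 was lower with centred arrays, the replicate block, the robust prior, or the methods' test, and single mice left out gave 1 to 6 higher, with 6 without BTΔMAFF replicate 4, and 0 to 3 lower, with 0 without BTWT replicate 1. Of transporters, 5 were higher with array weights, and single mice left out gave 2 to 4 higher and 1 to 2 lower.

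Some differences turned sign. Quantile normalization gave 0.00540 for Cyp1a1, 0.00704 for Cyp3a11, and 0.0427 for Nfe2l2, and centred arrays gave 0.00543 for Cyp1a1, 0.00235 for Cyp2e1, and 0.00417 for Cyp3a11. Array weights gave -0.0654 for Cyp4v3, -0.121 for Gstt1, 0.257 for Cyp4b1, 0.0183 for Gstp1, 0.109 for Gsto1, 0.0594 for Sult1d1, and 0.0422 for Nfe2l2. The mean of all probe sets gave 0.0348 for Sult1d1, 0.0209 for Ahr, and 0.00413 for Nfe2l2, and without _s_at and _x_at probe sets Cyp4v3 was -0.0732 and Cyp2b10 -0.0210. Without both arrays, Cyp4b1 was 0.131, Gstp1 0.00146, and Nfe2l2 0.0295. Over the 8 mice left out in turn, Cyp3a25 ranged between -0.0774 and 0.752, Cyp4v3 between -0.0548 and 0.651, Gstt1 between -0.174 and 0.376, Ugt2b36 between -0.122 and 0.421, Cyp2b10 between -0.0106 and 0.180, and Cyp2e1 between -0.0429 and 0.00106. Cyp4b1 ranged between -0.433 and 0.0205, Gstp1 between -0.130 and 0.0163, Gsto1 between -0.151 and 0.0234, Sult1d1 between -0.186 and 0.0822, and Nfe2l2 between -0.128 and 0.0670. In the comparisons of single genes, 870 kept direction and side of the threshold, 31 newly passed it, and 50 no longer did. The cause of these changes was not tested. Signal over background is unknown because the values are centred.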
